A study of Mus musculus with 28 samples.

Results

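The matrix metalloproteinases (MMPs), the ADAMTS proteases and the tissue inhibitors of metalloproteinases (TIMPs) were followed in sorted mouse mammary cells. Members were the protein-coding genes whose symbols are *Mmp*, *Adamts* or *Timp* with a number. This gave 45 genes of 50600 in the counts (21764 of them protein-coding), with 22 MMP, 19 ADAMTS and 4 TIMP genes. RNA-seq was performed on 28 libraries from 7 adult female *PdgfrαCre R26mTmG* mice on a C57BL/6 background. In these mice any cell that has expressed Cre from the *Pdgfra* promoter, and all of its progeny, is GFP+ for good, and the rest is tdTomato+, so GFP marks a history of *Pdgfra* promoter activity rather than its present state. From 4 untreated mice and 3 mice given slow-release estrogen plus progesterone (E+P) pellets, GFP+ and tdTomato+ cells were sorted from the stroma (CD49f-EpCAM-) and from the luminal epithelium (CD49f lo EpCAM+). All cells were sorted as CD31-CD45-Ter119- to exclude endothelial and blood cells, and all glands had been digested with collagenase and hyaluronidase.

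MMPs cleave collagens and other matrix proteins and are made as inactive precursors, either secreted or tied to the membrane. ADAMTS proteases are secreted and bind the matrix. Some of them trim procollagens, others cut large proteoglycans such as versican. TIMPs block MMPs, and TIMP3, which stays bound in the matrix, also blocks several ADAMTS and ADAM enzymes. In the mammary gland these enzymes and inhibitors are known for their part in duct growth, branching and involution.

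The libraries held 8623383 to 24583803 counts each. Levels are given as CPM, a gene's counts scaled to library depth, and 3 counts equal 0.122 to 0.348 CPM, a floor for counting error only. *Pdgfra* was counted at 1822 to 2455 CPM in the 7 GFP+ stroma libraries and at 35.3 to 273 CPM in the 7 tdTomato+ stroma libraries, and *Epcam* at 659 CPM or more in each luminal library and at 52.0 CPM or less in each stromal one. The markers showed that tdTomato+ stroma was a mixture of cell types. The summed level of 8 pericyte and smooth muscle genes was 6372 to 9293 CPM there against 657 to 837 CPM in GFP+ stroma. For 7 skeletal muscle genes it was 2377 to 21068 against 7.65 to 16.1 CPM, for 4 satellite cell genes 201 to 338 against 0.0528 to 1.14 CPM, and for 7 fibroblast genes 1791 to 6522 against 31721 to 61145 CPM. The neutrophil genes *S100a9* and *Retnlg* had no count in any group, and the 5 macrophage genes summed to at most 17.8 CPM. The tdTomato+ stroma libraries of untreated mice 1 and 3 stood apart, with fibroblast sums of 4796 and 6522 CPM against 1791 to 2765 CPM in the other 5. Among luminal cells, GFP+ libraries held more of 5 luminal progenitor genes (1752 to 3282 against 152 to 952 CPM) and less of 6 hormone-sensing genes (156 to 1830 against 1745 to 5579.5 CPM). In bulk libraries such as these, fewer cells of a type and less RNA per cell cannot be told apart.

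The genes with the highest levels differed between the stromal subsets, while *Adamts1*, *Mmp14*, *Timp2* and *Timp3* were among the first 8 in all 4 populations. Comparison between genes needs a scale per length, and CPM per kb of exon was used for it. In GFP+ stroma the highest medians were those of *Mmp3* (stromelysin-1, 740.4 CPM per kb), *Mmp2* (gelatinase A, 648) and *Timp2* (408), followed by *Adamts1* (179) and *Mmp14* (174), which encodes the membrane-bound activator of pro-MMP2. In tdTomato+ stroma the order was *Adamts1* (607 CPM per kb), *Adamts4* (590.2), *Adamts9* (175) and *Timp3* (157), and the first MMP, *Mmp14*, stood at 29.5. The 22 MMP genes summed to 1157 to 2307 CPM per kb in GFP+ stroma and to 60.4 to 203 in tdTomato+ stroma. The sum of the 19 ADAMTS genes went the other way, with 445 to 541 CPM per kb in GFP+ and 924 to 1819.8 in tdTomato+ stroma. In tdTomato+ stroma this sum was led by *Adamts1*, *Adamts4* and *Adamts9*. Taken gene by gene, 11 of the 19 were higher in GFP+ and 5 higher in tdTomato+ stroma at an adjusted p under 0.01 (edgeR). In luminal cells the leading gene was *Mmp15*, a second membrane-type MMP, with a median of 30.6 CPM per kb in GFP+ and 41.8 in tdTomato+ cells.

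**Figure D1:**
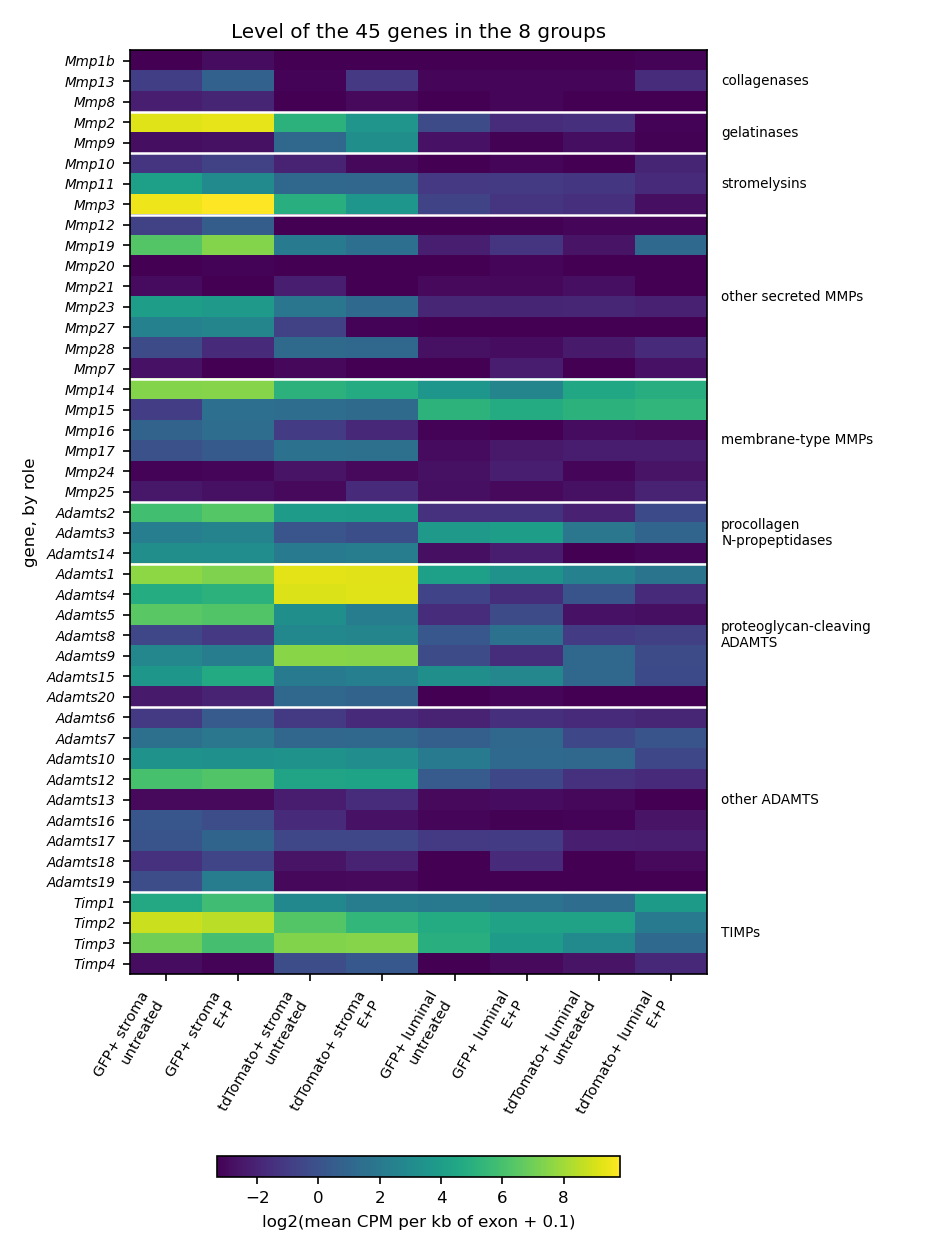
Heat map of the mean level of the 45 genes (rows, by role) in the 8 groups (columns; 4 untreated or 3 E+P-treated mice each), as log2 of the mean CPM per kb of exon plus 0.1. GFP+ stroma is brightest for *Mmp3*, *Mmp2* and *Timp2*, tdTomato+ stroma for *Adamts1*, *Adamts4* and *Adamts9*, *Mmp15* is brighter in luminal than in stromal cells, and *Adamts3* is brightest in GFP+ luminal cells.

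Of the 45 genes, 29 reached a mean of 10 CPM in at least 1 of the 8 groups and 7 stayed under 1 CPM in every group. These 7 were *Mmp10*, *Mmp24*, *Mmp8* (neutrophil collagenase), *Mmp21*, *Mmp7* (matrilysin), *Mmp1b* and *Mmp20* (enamelysin), with highest group means between 0.0453 and 0.881 CPM. After the filter on low counts 39 members were tested in stroma and 27 in luminal cells.

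GFP+ and tdTomato+ stroma were compared first, over all 7 mice. Of the 39 members tested, 33 were called at an adjusted p under 0.01 (edgeR's quasi-likelihood test), 23 of them higher in GFP+ and 10 higher in tdTomato+ stroma, where 20.6% and 21.3% of all 17783 genes tested were called in these directions. The median log2 fold change was 1.95 over the members and -0.01 over all genes. Without the tdTomato+ stroma of untreated mice 1 and 3 the counts were again 23 and 10.

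The gelatinases were split between the subsets. *Mmp2* was counted at 2184, 1527, 1884 and 2468 CPM in the GFP+ stroma of the untreated mice and at 2212, 2272 and 2158 CPM after E+P, against 181, 29.6, 205 and 67.4 CPM and 31.9, 23.9 and 62.9 CPM in tdTomato+ stroma. All GFP+ libraries lay above all tdTomato+ libraries, and the highest tdTomato+ values came from untreated mice 1 and 3, the libraries with the most fibroblast marker RNA. The log2 fold change was 4.92 ± 0.45 (SE, adjusted p = 2.2e-06, edgeR) and 5.58 without those 2 libraries. *Mmp9* (gelatinase B) lay between 0 and 0.305 CPM in GFP+ and between 0.199 and 49.9 CPM, with a median of 14.1, in tdTomato+ stroma (log2 fold change -6.53 ± 0.84, adjusted p = 2.6e-05, edgeR), and the ranges met in 1 tdTomato+ library. Macrophages and neutrophils are known sources of MMP9. The 5 macrophage genes summed to 9.54 to 17.8 CPM in tdTomato+ and 3.33 to 7.25 CPM in GFP+ stroma, and the 6 neutrophil genes to at most 0.796 CPM in both. The part of such cells in the *Mmp9* difference was not tested.

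Of the 3 stromelysins, *Mmp3* and *Mmp11* were called higher in GFP+ stroma and *Mmp10* was not called (log2 fold change 2.69 ± 0.93, adjusted p = 0.022, edgeR). *Mmp3* ran from 821 to 2251 CPM (median 1333) in GFP+ and from 4.74 to 129 CPM (median 37.3) in tdTomato+ stroma, a log2 fold change of 5.37 ± 0.74 (adjusted p = 7.6e-05, edgeR). *Mmp11* (stromelysin-3) was counted at 21.5, 19.2, 16.4 and 132 CPM in the GFP+ stroma of untreated and at 19.0, 23.5 and 22.3 CPM in that of E+P-treated mice, and at 3.07 to 7.48 CPM in tdTomato+ stroma. One library, from untreated mouse 4, was thus more than 100 CPM above the rest. The log2 fold change of *Mmp11* was 2.47 ± 0.50 (adjusted p = 0.0012, edgeR) with that mouse and 1.89 without it, where it was again called, and E+P mouse 2 left out gave an adjusted p of 0.012 (edgeR).

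Of the other secreted MMPs, *Mmp19*, which cleaves basement membrane proteins, stood at 219 to 668 CPM in GFP+ and at 2.37 to 29.8 CPM in tdTomato+ stroma (log2 fold change 5.11 ± 0.66, adjusted p = 4.5e-05, edgeR). It shares 789 exon bases with *Tmem198b* on the opposite strand, whose median was 18.7 CPM in GFP+ and 2.81 CPM in tdTomato+ stroma. *Mmp23* stood at 28.7 to 43.5 against 4.18 to 11.3 CPM (2.42 ± 0.19, adjusted p = 1.3e-08, edgeR). The low-level genes *Mmp27* (7.71 to 22.5 against 0 to 2.94 CPM) and *Mmp12* (macrophage metalloelastase, 0.0775 to 15.2 against 0 to 0.0971 CPM) were also called higher in GFP+ stroma. Against these, *Mmp28* (epilysin) was higher in tdTomato+ stroma, at 4.96 to 11.1 against 0.568 to 4.57 CPM.

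A cluster of 9 MMP genes lies on chromosome 9, between bases 7272514 and 7699585 of GRCm38 (427 kb). In GFP+ stroma *Mmp3* was far the most abundant of them. *Mmp27*, *Mmp12* and *Mmp13* (collagenase-3) had medians of 11.2, 5.90 and 1.93 CPM, *Mmp10* (stromelysin-2) of 0.542 CPM, and *Mmp8*, *Mmp1b*, *Mmp20* and *Mmp7* stayed under 1 CPM in every library. *Mmp12* and *Mmp1b* overlap on opposite strands by 157 exon bases. The AP-1 element, TGAGTCA or its reverse complement TGACTCA, is known to drive several of these genes and was looked for in the 250 bases before the start of each gene. It was found in 6 of the 9 genes of the cluster, in 0 of the other 22 members with a sequence in the RefSeq table, and in 5.16% of the 27025 genes of that table. The last 100 bases before the start are shown for 5 expressed or neighbouring genes (RefSeq, GRCm38.p6, plus strand), because they show how the same short element sits in genes whose levels differ widely. Capitals mark the element, and *Mmp27* is shown as an expressed gene without a match. Starts were those of RefSeq, and a gene counted if any of its starts had the element before it. The *Mmp12* start shown lies within the GENCODE span of that gene (bases 7344381 to 7369499).
Mmp13, chr9:7272414-7272513: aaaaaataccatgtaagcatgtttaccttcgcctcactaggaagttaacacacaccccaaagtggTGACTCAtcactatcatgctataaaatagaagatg
Mmp12, chr9:7347274-7347373: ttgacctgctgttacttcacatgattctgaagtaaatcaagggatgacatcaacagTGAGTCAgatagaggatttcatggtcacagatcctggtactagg
Mmp3, chr9:7445722-7445821: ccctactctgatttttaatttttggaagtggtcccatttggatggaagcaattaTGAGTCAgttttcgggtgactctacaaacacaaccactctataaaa
Mmp10, chr9:7502242-7502341: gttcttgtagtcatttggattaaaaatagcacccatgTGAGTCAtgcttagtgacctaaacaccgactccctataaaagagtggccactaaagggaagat
Mmp27, chr9:7571296-7571395: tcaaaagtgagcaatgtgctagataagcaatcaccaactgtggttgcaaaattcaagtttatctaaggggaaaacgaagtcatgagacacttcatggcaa
The element began 35 bases before the start in *Mmp13*, 44 in *Mmp12*, 46 in *Mmp3* and 63 in *Mmp10*. The same letters were thus present in a gene with a median of 1333 CPM and in one with 0.542 CPM in GFP+ stroma. The summed level of 8 immediate early genes, which include the AP-1 subunits *Fos*, *Fosb*, *Jun* and *Junb*, was 5055 to 8309 CPM in GFP+ and 6527 to 9921 CPM in tdTomato+ stroma. Of the 8, *Atf3*, *Egr1*, *Junb* and *Nr4a1* were called higher in tdTomato+ stroma and 0 were called higher in GFP+ stroma. The part of the immediate early genes in the levels of the cluster or of the other members was not tested.

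Among the membrane-type MMPs, *Mmp14* was the most abundant in stroma. It stood at 1088, 905, 1029 and 1042 CPM in the GFP+ stroma of untreated and 1036, 1039.7 and 1023 CPM in that of E+P-treated mice, and at 151 to 258 CPM in tdTomato+ stroma. The subsets did not overlap (log2 fold change 2.45 ± 0.10, adjusted p = 3.4e-12, edgeR). *Mmp16* was higher in GFP+ stroma as well (11.4 to 25.6 against 0.918 to 5.91 CPM, log2 fold change 2.91 ± 0.28, adjusted p = 1.4e-07, edgeR). *Mmp17*, which is held by a lipid anchor, was higher in tdTomato+ stroma (12.8 to 23.0 against 4.16 to 8.27 CPM).

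The 3 procollagen N-propeptidases, *Adamts2*, *Adamts3* and *Adamts14*, which remove the N-terminal propeptides of fibrillar collagens, were all higher in GFP+ stroma. *Adamts2* stood at 436 to 784 CPM against 117 to 173 CPM (log2 fold change 2.20 ± 0.11, adjusted p = 3.1e-11, edgeR), *Adamts3* at 21.9 to 35.7 against 2.57 to 8.63 CPM and *Adamts14* at 39.4 to 53.0 against 15.2 to 27.3 CPM.

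The 7 proteoglycan-cleaving ADAMTS genes were all called, 2 higher in GFP+ and 5 higher in tdTomato+ stroma. *Adamts4* (aggrecanase-1) was counted at 1599, 3513, 2263 and 3644 CPM in untreated and 2839, 3013 and 2695 CPM in E+P-treated tdTomato+ stroma, and at 85.3 to 205 CPM in GFP+ stroma. *Adamts9*, which also cuts versican, ran from 1346 to 3657 CPM against 55.7 to 137 CPM. *Adamts1* was abundant in both, at 2244 to 4083 CPM in tdTomato+ and 735 to 1103 CPM in GFP+ stroma. For these 3 genes the tdTomato+ libraries all lay above the GFP+ libraries, and untreated mouse 1, with much fibroblast marker RNA, was the lowest of the 7. *Adamts4* and *Adamts9* each share exon bases with genes of the opposite strand. The log2 fold changes of GFP+ against tdTomato+ stroma were -4.21 ± 0.23, -5.05 ± 0.27 and -1.84 ± 0.13 (adjusted p = 1.0e-09, 1.3e-09 and 1.6e-09, edgeR). *Adamts8* (21.8 to 40.3 against 0.833 to 3.95 CPM, log2 fold change -3.89 ± 0.29, adjusted p = 8.7e-09, edgeR) and *Adamts20* (8.06 to 25.1 against 0.227 to 2.01 CPM) completed this side.

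The 2 proteoglycan-cleaving genes on the GFP+ side were *Adamts5* (aggrecanase-2) and *Adamts15*. *Adamts5* was counted at 1015, 939, 933 and 1019 CPM in untreated and at 811, 881 and 816 CPM in E+P-treated GFP+ stroma, against 179, 42.0, 116 and 61.0 CPM and 55.5, 35.8 and 58.2 CPM in tdTomato+ stroma (log2 fold change 3.67 ± 0.29, adjusted p = 2.2e-07, edgeR). As for *Mmp2*, the high tdTomato+ values were those of untreated mice 1 and 3. *Adamts15* stood at 86.5 to 298 against 37.1 to 62.1 CPM (log2 fold change 1.95 ± 0.13, adjusted p = 1.4e-09, edgeR).

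The 9 other ADAMTS genes gave 6 calls, all higher in GFP+ stroma, of which that of *Adamts17* was lost without untreated mouse 1, 3 or 4 or E+P mouse 1 or 2 (adjusted p 0.012 to 0.072, edgeR). *Adamts12*, which cleaves cartilage oligomeric matrix protein, stood at 524 to 953 against 163 to 253 CPM (log2 fold change 1.80 ± 0.15, adjusted p = 3.1e-08, edgeR), and its relative *Adamts7* at 15.6 to 23.0 against 9.12 to 13.7 CPM. *Adamts19* ran from 5.78 to 72.8 CPM in GFP+ and from 0 to 0.979 CPM in tdTomato+ stroma. *Adamts10*, which is linked to fibrillin microfibrils, had 72.0 to 94.9 CPM in GFP+ and 62.8 to 104 CPM in tdTomato+ stroma. Its ranges overlapped and it was not called (log2 fold change 0.07 ± 0.11, adjusted p = 0.624, edgeR). *Adamts13*, *Adamts18*, *Mmp10*, *Mmp15* and *Mmp25* were the other 5 tested members without a call.

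The inhibitors went both ways. *Timp2*, which blocks MMPs and also takes part in the activation of pro-MMP2 by MMP14, was counted at 1297 to 1821 CPM in GFP+ and 134 to 446 CPM in tdTomato+ stroma (log2 fold change 2.76 ± 0.18, adjusted p = 1.6e-09, edgeR). *Timp1* stood at 15.7 to 65.2 against 2.12 to 10.7 CPM (2.70 ± 0.33, adjusted p = 8.2e-06, edgeR). *Timp3* was higher in tdTomato+ stroma, at 1014, 1268, 1135 and 1908 CPM in untreated and 1277, 1548 and 1391 CPM in E+P-treated mice, against 1251, 941, 918 and 1106 CPM and 446, 467 and 605 CPM in GFP+ stroma. The untreated subsets overlapped and the treated ones did not (log2 fold change over all mice -0.92 ± 0.14, adjusted p = 2.3e-05, edgeR), and *Timp3* was higher in the GFP+ stroma of 1 of 7 mice. *Timp4* was scarce, at 2.72 to 11.3 CPM in tdTomato+ and 0 to 0.549 CPM in GFP+ stroma. *Timp3* lies within *Syn3* and shares 1733 exon bases with it on the opposite strand, and whether the counting used the strand was not given in the sources used here.

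**Figure D2:**
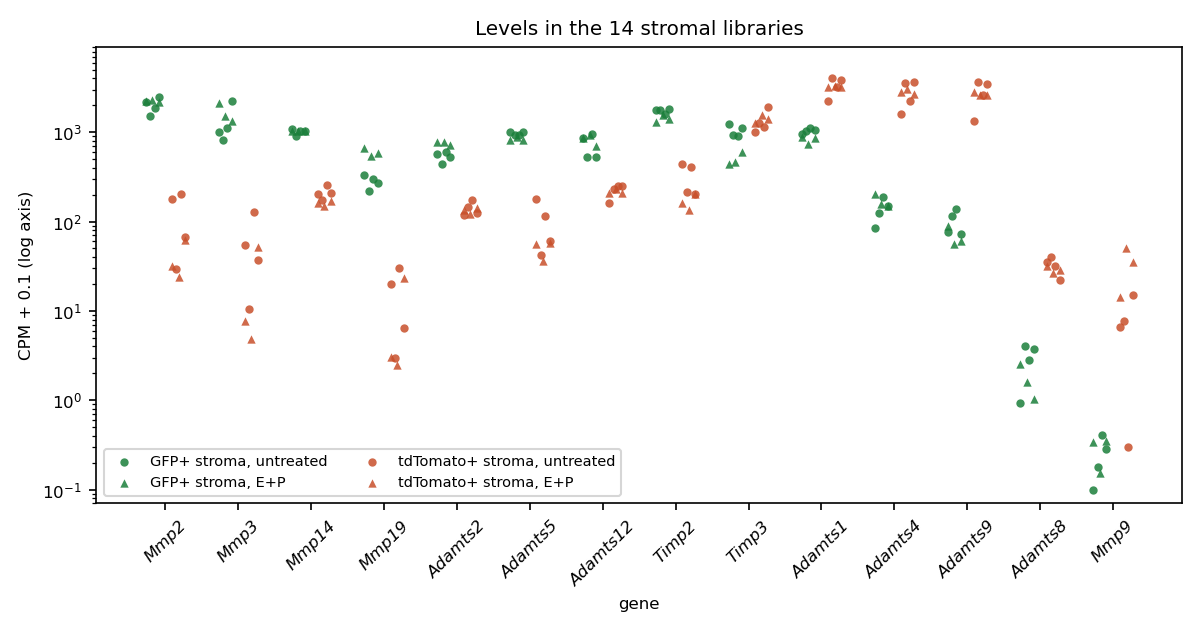
Level of 14 members in the 14 stromal libraries, as CPM plus 0.1 on a log axis, with GFP+ stroma in green and tdTomato+ stroma in orange, circles for untreated and triangles for E+P-treated mice. *Mmp2*, *Mmp3*, *Mmp19* and *Adamts5* lie higher in GFP+ stroma and spread widely in tdTomato+ stroma, whereas *Adamts1*, *Adamts4*, *Adamts9* and *Adamts8* lie higher in tdTomato+ stroma.

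The same comparison in luminal cells gave 14 calls among 27 members tested, 11 higher in GFP+ and 3 higher in tdTomato+ cells, where 15.7% and 19.0% of all 16538 genes tested were called in these directions. The median log2 fold change was 1.17 over the members and 0.00 over all genes. As given above, luminal progenitor and hormone-sensing marker genes moved with this comparison too. So did 6 Schwann cell genes, with sums of 207 to 319 CPM in GFP+ and 44.2 to 133 CPM in tdTomato+ cells. The sums of 6 endothelial genes (6.24 to 30.9 against 31.1 to 241 CPM) and 5 basal epithelial genes (41.6 to 132 against 7.60 to 62.5 CPM) moved as well. Of 3 endothelial genes tested only *Vwf* was called, and it alone stood at 2.62 to 26.7 against 28.7 to 239 CPM. Of 4 Schwann cell genes tested *Prx* and *Sox10* were called, and of 5 basal epithelial genes *Krt14* and *Oxtr*. The 7 fibroblast genes summed to 22.1 to 110.4 CPM in GFP+ and 7.33 to 74.9 CPM in tdTomato+ cells. Of them *Pdgfra* alone was called (3.26 to 25.9 against 2.25 to 5.85 CPM). Of 7 pericyte and smooth muscle genes tested *Acta2* and *Mcam* were called, both higher in GFP+ cells. Whether the sums stand for cells of these types, and the part of such cells in the comparison, was not tested.

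The calls on the GFP+ side were mostly ADAMTS genes. *Adamts3* was counted at 65.3 to 88.8 CPM in GFP+ and 6.56 to 35.0 CPM in tdTomato+ luminal cells (log2 fold change 2.48 ± 0.28, adjusted p = 2.1e-05, edgeR). *Adamts15* stood at 63.1 to 105 against 3.80 to 34.7 CPM (2.71 ± 0.31, adjusted p = 2.3e-05, edgeR), *Adamts12* at 4.55 to 23.6 against 1.28 to 3.14 CPM and *Adamts8* at 4.18 to 15.4 against 0.791 to 3.25 CPM. The 2 luminal subsets did not overlap in these 4 genes. *Adamts1* was higher in the GFP+ cells of 7 of 7 mice (41.7 to 144 against 7.73 to 45.6 CPM, log2 fold change 1.63 ± 0.34, adjusted p = 0.0019, edgeR), as were *Adamts5* (1.34 to 11.4 against 0 to 1.45 CPM), *Adamts7* and *Adamts10* (15.8 to 44.7 against 3.76 to 21.2 CPM, 1.40 ± 0.16, adjusted p = 9.4e-06, edgeR). *Mmp2* was called as well, but from 0.680 to 4.69 against 0 to 2.24 CPM. With 1 mouse left out the calls of *Adamts1* (E+P mouse 3, adjusted p = 0.013), *Mmp2* (E+P mouse 1 or 2, 0.011 and 0.019) and *Adamts7* (untreated mouse 1 or 3 or E+P mouse 2 or 3, 0.01 to 0.026) were lost (edgeR).

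Both main inhibitors were higher in GFP+ luminal cells. *Timp3* was counted at 265, 359, 159.7 and 262 CPM in untreated and 70.8, 125 and 174 CPM in E+P-treated GFP+ cells, against 64.7 ± 38.7 CPM (SD, n = 4) and 17.4 ± 3.19 CPM (SD, n = 3) in tdTomato+ cells, and was higher in the GFP+ cells of 7 of 7 mice (log2 fold change 2.39 ± 0.37, adjusted p = 2.2e-04, edgeR). *Timp2* was higher in the GFP+ cells of 6 of 7 mice, at 72.5 to 133 against 13.7 to 98.4 CPM (1.33 ± 0.13, adjusted p = 3.1e-06, edgeR).

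*Mmp14* was the clearest of the 3 members on the tdTomato+ side. It was counted at 89.4, 66.2, 74.0 and 56.4 CPM in untreated and 40.4, 39.8 and 33.0 CPM in E+P-treated GFP+ luminal cells, and at 117 to 163 CPM (135 ± 20.4, SD, n = 4) and 201, 159 and 159 CPM in tdTomato+ luminal cells. The subsets did not overlap (log2 fold change -1.58 ± 0.11, adjusted p = 7.6e-07, edgeR). *Adamts9* was also higher in tdTomato+ cells (8.42 to 50.9 against 1.88 to 14.3 CPM, -1.62 ± 0.32, adjusted p = 0.0012, edgeR), as was *Timp4* at a level of at most 1.58 CPM (-3.33 ± 0.69, adjusted p = 0.0011, edgeR). The call of *Timp4* was lost without E+P mouse 2 (adjusted p = 0.012, edgeR). Without untreated mouse 2 there were also only 2 calls on this side, and *Mmp14* and *Adamts9* kept theirs. *Timp4* shares 90 exon bases with *Syn2* on the opposite strand, and the median of *Syn2* was 71.9 CPM in tdTomato+ and 16.7 CPM in GFP+ luminal cells. *Mmp15*, the leading luminal member, differed little, with 141 to 241 CPM in GFP+ and 134 to 248 CPM in tdTomato+ cells (-0.26 ± 0.15, adjusted p = 0.164, edgeR).

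Whether the subset difference was the same in stroma and luminal cells was tested as an interaction over all 28 libraries. It was called for 17 of 39 members tested, against 33.2% of all 19569 genes. Of the 17, 10 were more strongly on the GFP+ side in stroma and 7 in luminal cells. *Mmp12*, *Mmp13*, *Mmp16*, *Mmp23*, *Adamts14* and *Adamts16* were among them. Each stayed at 1.01 CPM or less in every luminal library and was not tested in luminal cells alone, so its interaction rests on few luminal counts. In 4 of the 17 the order of the subsets was called in both lineages and turned over. *Mmp14* was higher in GFP+ stroma but lower in GFP+ luminal cells (interaction 4.03 ± 0.15 on the log2 scale, adjusted p = 2.7e-16, edgeR). *Adamts1*, *Adamts8* and *Timp3* were lower in GFP+ stroma but higher in GFP+ luminal cells (-3.49 ± 0.38, -5.91 ± 0.45 and -3.33 ± 0.40, adjusted p = 7.4e-08, 1.0e-10 and 4.9e-07, edgeR). *Adamts3* differed alike in both, with a log2 fold change of 2.51 ± 0.23 in stroma and 2.48 ± 0.28 in luminal cells and an interaction of 0.02 ± 0.34, as did *Adamts12* with 1.80 ± 0.15 and 1.95 ± 0.28 (interaction -0.15 ± 0.32). With 1 mouse left out the interaction lost its call for *Adamts4* (untreated mouse 4 or any E+P mouse, adjusted p 0.023 to 0.059), *Mmp19* (untreated mouse 4, 0.012), *Adamts14* (untreated mouse 1 or 3 or E+P mouse 2 or 3, 0.013 to 0.027) and *Mmp23* (E+P mouse 2 or 3, 0.027 and 0.012; edgeR). The same held for the scarcer *Adamts16* (untreated mouse 4 or E+P mouse 1 or 2, 0.015 to 0.989), *Mmp12* (untreated mouse 1 or E+P mouse 1, adjusted p = 1 in both) and *Mmp13* (untreated mouse 1, 2 or 4 or E+P mouse 2 or 3, 0.01 to 1; edgeR), and 12 to 18 members were called with a mouse left out. The members on the tdTomato+ side in both lineages were *Adamts9* and, at low levels in luminal cells, *Timp4*.

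**Figure D3:**
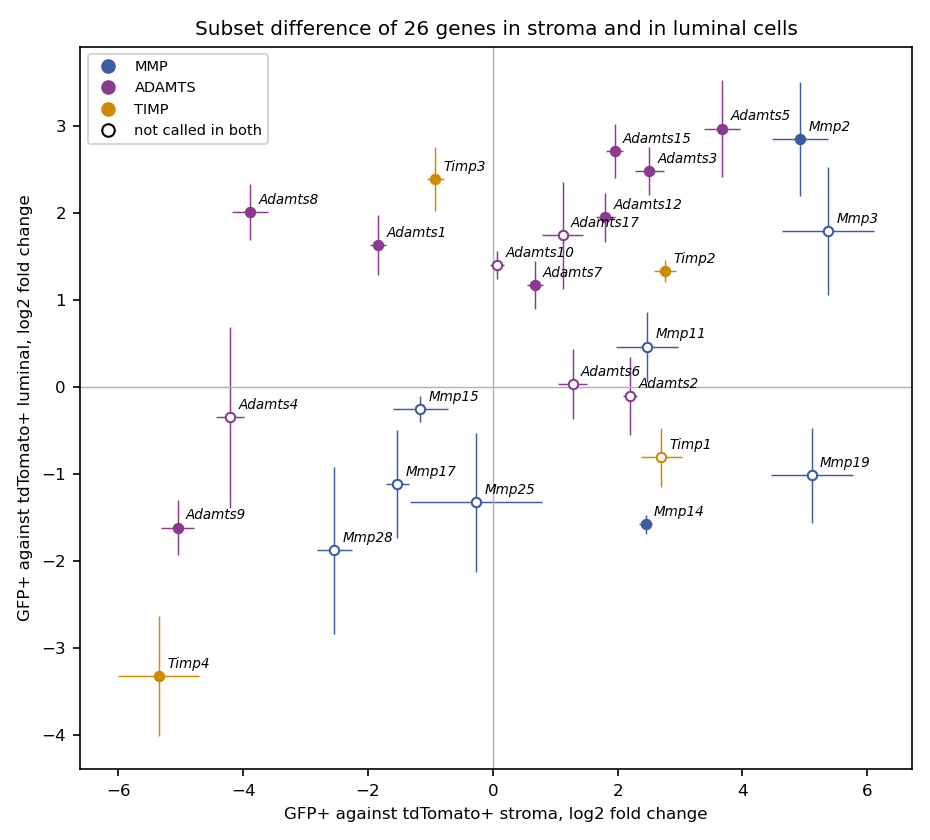
Log2 fold change of GFP+ against tdTomato+ cells in stroma (x axis) and in luminal cells (y axis) for 26 members tested in both, with bars of 1 standard error and filled points for genes called in both. *Adamts1*, *Adamts8* and *Timp3* lie at the upper left and *Mmp14* at the lower right, on opposite sides of 0 in the 2 lineages.

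Over all 7 mice most members were higher in stroma than in luminal cells, 33 of 39 tested against 33.0% of all genes, and 2 were higher in luminal cells against 30.5% of all genes. The median log2 fold change of the members was 3.96 and that of all genes 0.02. The 2 luminal genes were *Mmp15* (134 to 248 CPM in luminal and 0.984 to 22.1 CPM in stromal libraries, log2 fold change -4.44 ± 0.26, adjusted p = 5.1e-13, edgeR) and *Adamts3* (-1.49 ± 0.18, adjusted p = 9.6e-08, edgeR). Among the 33 higher in stroma the calls of *Mmp10* and *Mmp27* (without E+P mouse 1 and 3, adjusted p = 1 in both) and *Timp4* (without untreated or E+P mouse 3, 0.015 and 0.973) were lost (edgeR). In tdTomato+ stroma *Mmp15* was highest, at 21.6 and 22.1 CPM, in untreated mice 2 and 3. Their libraries also held most RNA of 6 luminal epithelial genes (284 and 455 CPM against 3.49 to 76.7 CPM in the other 5). With E+P *Mmp15* stood there at 13.3, 15.1 and 7.83 CPM, beside sums of 8.01, 37.6 and 3.49 CPM. In GFP+ stroma *Mmp15* ran from 0.984 to 3.54 CPM without and from 11.0 to 19.7 CPM with E+P. The sums there were 18.5 to 83.1 and 4.13 to 5.07 CPM. The part of luminal cells in the level of *Mmp15* was not tested.

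Hormone treatment was compared within each population. In GFP+ stroma 1 of 39 members was called, against 0.231% of all 17783 genes. *Adamts15* rose from 119.9, 86.5, 147 and 156 CPM to 294, 298 and 242 CPM (log2 fold change 1.13 ± 0.18, adjusted p = 0.0039, edgeR). All treated libraries lay above all untreated ones, but leaving out untreated mouse 1 or E+P mouse 1, 2 or 3 gave adjusted p between 0.016 and 0.049 (edgeR), above the threshold of 0.01, with log2 fold changes of 1.07 to 1.21. In tdTomato+ stroma *Adamts15* ran from 37.1 to 49.9 CPM without and from 47.3 to 62.1 CPM with E+P (0.29 ± 0.18, adjusted p = 0.448, edgeR), and the difference between the subsets was 0.84 ± 0.25 (adjusted p = 0.23, edgeR).

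Other members of GFP+ stroma were separated by treatment without passing the threshold. The libraries did not overlap in 9 members that were higher and 5 that were lower with E+P, of 39 tested, where 6.91% and 6.06% of all genes were so separated. *Adamts19* stood at 14.8, 11.5, 11.6 and 5.78 CPM without and 72.8, 61.5 and 61.4 CPM with E+P (log2 fold change 2.59 ± 0.54, adjusted p = 0.051, edgeR). *Mmp19* stood at 335, 219, 299.7 and 271 CPM without and 668, 539 and 587 CPM with E+P (1.10 ± 0.75, adjusted p = 0.858, edgeR). *Timp3* was lower with E+P, at 446, 467 and 605 CPM against 1251, 941, 918 and 1106 CPM (-1.05 ± 0.20, adjusted p = 0.018, edgeR). A fit of the 2 groups of GFP+ stroma alone, without the tdTomato+ libraries, gave adjusted p of 1.7e-04 for *Adamts19*, 7.4e-04 for *Mmp19* and 0.0014 for *Timp3* (edgeR), and 6 called members in place of 1. The other separated members were *Adamts2*, *Adamts6*, *Adamts7*, *Mmp13*, *Mmp15* and *Mmp17*, higher with E+P, and *Adamts1*, *Adamts5*, *Mmp28* and *Timp2*, lower with E+P. Marker genes of other cells moved with the treatment of GFP+ stroma too. The endothelial sum was 189.7 to 273 CPM without and 139 to 158 CPM with E+P, that of 5 adipocyte genes at least 35.0 CPM without and at most 31.1 CPM with E+P, that of the luminal epithelial genes 18.5 to 83.1 and 4.13 to 5.07 CPM and that of the luminal progenitor genes 37.7 to 66.8 and 11.4 to 26.7 CPM. Their part in the values of *Adamts15* and the separated members was not tested.

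In tdTomato+ stroma edgeR called 0 of 39 members, against 0.124% of all genes, and the lowest adjusted p was that of *Timp2* (0.077), which stood at 446, 214, 405 and 201 CPM without and 163, 134 and 201 CPM with E+P. At an unadjusted p under 0.05 there were 11 members, limma-voom called 0, and DESeq2 called 1, *Timp2*. The difference of the E+P response between the stromal subsets was called by edgeR for 0 of 39 members, against 0.0450% of all genes, with 11 at an unadjusted p under 0.05, by limma-voom for 0 and by DESeq2 for 1.

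In GFP+ luminal cells 3 of 27 members were called with E+P, 1 higher and 2 lower, against 3.17% and 2.78% of all 16538 genes. *Mmp14* stood at 56.4 to 89.4 CPM in untreated and 33.0 to 40.4 CPM in treated mice (log2 fold change -0.93 ± 0.16, adjusted p = 0.0025, edgeR). *Adamts10* stood at 28.7 to 44.7 CPM and 15.8 to 22.3 CPM (-0.99 ± 0.22, adjusted p = 0.0082, edgeR). For both genes the groups did not overlap. With 1 mouse left out *Adamts10* always missed the threshold (adjusted p between 0.011 and 0.035, edgeR), and *Mmp14* did so without untreated mouse 1 or E+P mouse 2 or 3 (0.011, 0.02 and 0.023, edgeR). *Adamts18*, a scarce gene named here after its values were seen, had 0 counts in the 4 untreated GFP+ luminal libraries and 30, 52 and 35 counts in the 3 treated ones, at least 38.1-fold higher than 3 counts over the untreated group (adjusted p = 0.0035, edgeR). Its call was lost without E+P mouse 1, 2 or 3 (adjusted p 0.018 to 0.022, edgeR). In tdTomato+ luminal cells it also had 0 counts in the untreated libraries and 1, 12 and 3 counts in the treated ones, at least 7.07-fold higher, and was not called (adjusted p = 0.017, edgeR). Marker sums moved with the treatment of GFP+ luminal cells as well. That of the hormone-sensing genes was 283 to 1830 CPM without and 156 to 262 CPM with E+P, of the luminal progenitor genes 2059 to 3282 and 1752 to 2030.3 CPM, of the basal epithelial genes 41.6 to 85.5 and 117 to 132 CPM and of the fibroblast genes 35.8 to 110.4 and 22.1 to 24.9 CPM. Their part in the 3 calls was not tested.

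In tdTomato+ luminal cells 4 of 27 members were called, 2 higher and 2 lower with E+P, against 7.63% and 6.44% of all genes. *Timp2* was counted at 72.4, 67.8, 59.2 and 98.4 CPM in untreated and at 16.5 ± 3.23 CPM (SD, n = 3) in treated mice (log2 fold change -2.15 ± 0.19, adjusted p = 5.3e-06, edgeR), and *Adamts10* at 14.4 to 21.2 CPM and 3.76 to 6.49 CPM (-1.70 ± 0.23, adjusted p = 1.8e-04, edgeR). *Timp1* rose from 2.12, 1.10, 2.67 and 3.06 CPM to 18.1, 10.7 and 9.56 CPM (2.53 ± 0.47, adjusted p = 0.0017, edgeR). *Mmp19* rose from 0.0516, 0, 0.506 and 0.349 CPM to 8.89, 7.44 and 6.80 CPM (5.09 ± 0.76, adjusted p = 3.5e-04, edgeR), and *Tmem198b*, which overlaps it, had a median of 4.84 CPM in tdTomato+ luminal cells. In all 4 genes the untreated and the treated libraries did not overlap. Of 6 hormone-sensing marker genes 1, *Cited1*, was called lower in this comparison, and their sum was 3774 to 5579.5 CPM in untreated and 1745 to 2865 CPM in treated tdTomato+ luminal cells. Of 5 basal epithelial genes *Krt17* and *Trp63* were called higher, with sums of 7.60 to 18.3 and 35.4 to 62.5 CPM. Of 5 luminal progenitor genes *Aldh1a3* and *Csn3* were called lower, with sums of 227 to 952 and 152 to 265 CPM. The fibroblast gene *Dcn*, the macrophage gene *Csf1r* and the luminal epithelial gene *Cldn3* were called higher, and the Schwann cell gene *Mbp* lower. The sum of 6 endothelial genes was 31.1 to 134 CPM without and 219.8 to 241 CPM with E+P. Of these 6 genes 3 were tested and 0 called, and *Vwf* alone ran from 28.7 to 239 CPM over the tdTomato+ luminal libraries. Whether the sums stand for cells of these types, and the part of such cells in the changes of the 4 genes, was not tested.

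The difference of the E+P response between the luminal subsets was called for 2 members, against 2.27% of all genes. *Timp2* stood at 96.2 to 133 CPM without and 72.5 to 81.2 CPM with E+P in GFP+ luminal cells, a smaller drop than in tdTomato+ cells (difference 1.65 ± 0.25 on the log2 scale, adjusted p = 0.0019, edgeR). *Mmp14*, lower with E+P in GFP+ cells, stood at 117 to 163 CPM without and 159 to 201 CPM with E+P in tdTomato+ cells, where it was not called (0.38 ± 0.16, adjusted p = 0.087, edgeR), and the difference was -1.31 ± 0.22 (adjusted p = 0.0041, edgeR). Both differences missed the threshold without untreated mouse 1 or E+P mouse 2 or 3, with adjusted p between 0.012 and 0.035 (edgeR), and that of *Mmp14* also without untreated mouse 3 (0.015) or E+P mouse 1 (0.017). The difference of *Timp1*, -2.89 ± 0.68, had an adjusted p of 0.022 (edgeR), and 0.0069 with the mouse as a replicate block.

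**Figure D4:**
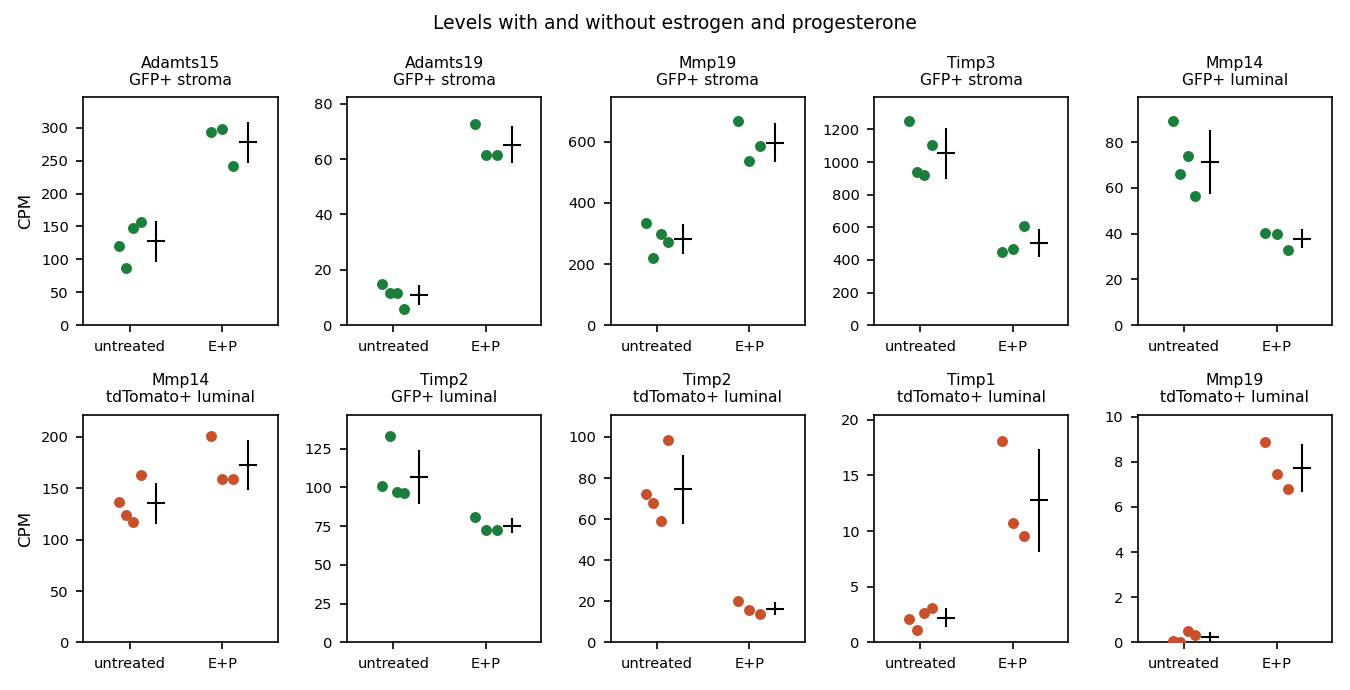
Level in CPM of members with a response to E+P or with separated libraries, in the 4 untreated and 3 E+P-treated libraries of the population named above each panel. Points are libraries and the bars beside them the mean and SD. The GFP+ stroma panels show *Adamts15*, *Adamts19* and *Mmp19* higher and *Timp3* lower with E+P, and *Timp2* drops to a mean of 16.5 CPM in tdTomato+ luminal cells.

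Next to each other in the genome lie 2 pairs of ADAMTS genes whose members were on opposite sides in the stroma. *Adamts1* (ENSMUSG00000022893.14, chromosome 16, bases 85793827 to 85803113 of GRCm38, minus strand) and *Adamts5* (bases 85856173 to 85901828, minus strand) are 53.1 kb apart. *Adamts15* (ENSMUSG00000033453.8, chromosome 9, bases 30899155 to 30922452, minus strand) and *Adamts8* (ENSMUSG00000031994.13, bases 30942562 to 30963838, plus strand) are 20.1 kb apart and are transcribed away from each other. Per kb of exon the log2 ratio of *Adamts1* to *Adamts5* was 0.76 to 1.27 in GFP+ stroma, 4.67 to 7.61 in tdTomato+ stroma, 2.86 to 6.15 in GFP+ and 4.83 to 6.26 in tdTomato+ luminal cells. GFP+ stroma, in which *Adamts5* is abundant, was thus apart from all other populations. The log2 ratio of *Adamts8* to *Adamts15* was -6.23 to -3.12 in GFP+ stroma and 0.22 to 1.11 in tdTomato+ stroma, and lay between -3.17 and -0.10 in luminal cells. In GFP+ luminal cells both genes of this pair were higher than in tdTomato+ luminal cells.

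**Figure D5:**
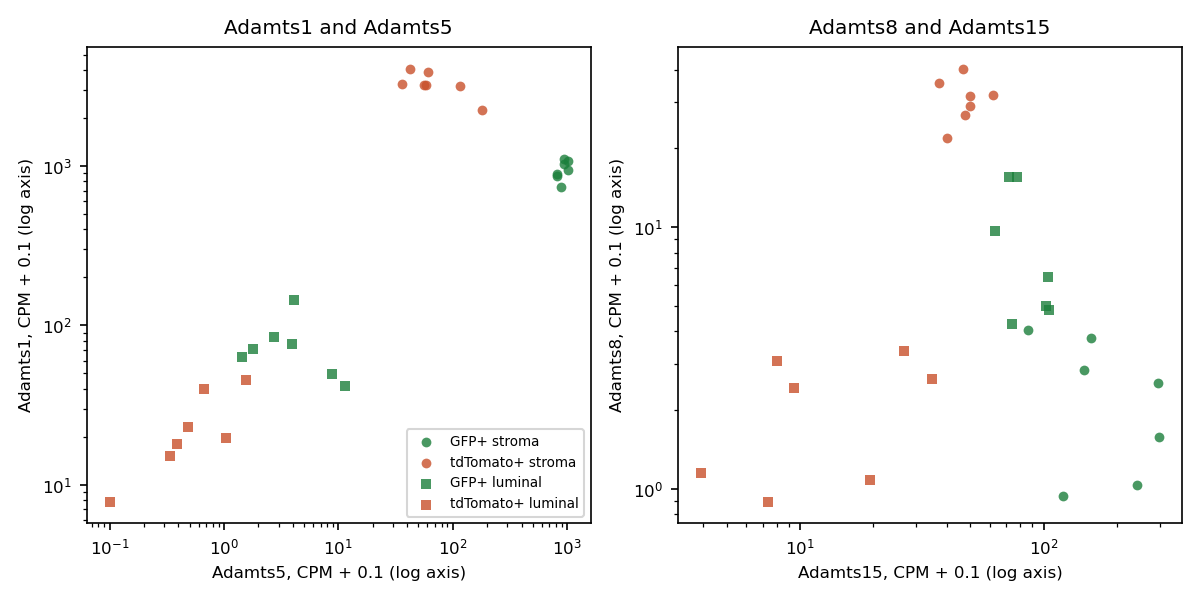
Level of *Adamts1* against *Adamts5* (left) and of *Adamts8* against *Adamts15* (right) in all 28 libraries, as CPM plus 0.1 on log axes, with green for GFP+, orange for tdTomato+, circles for stroma and squares for luminal cells. The stromal subsets form 2 groups that differ along both axes in opposite directions in each panel.

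Proteins that work with these enzymes were described from fixed lists. In stroma, GFP+ cells were higher for 5 of 8 tested ADAM proteases, for 5 of 7 ADAMTS-like proteins (with 1 lower), for 3 of 5 astacins and procollagen enhancers, and for 5 of 8 genes that activate, inhibit or take up metalloproteinases, where 20.6% of all genes were higher and 21.3% lower. *Reck*, a membrane-bound MMP inhibitor, was counted at 133 to 195 CPM in GFP+ and 7.76 to 27.3 CPM in tdTomato+ stroma (log2 fold change 3.16 ± 0.20, adjusted p = 2.5e-09, edgeR), and *Lrp1*, a receptor that clears proteases from the cell surface, at 5183 to 7355 against 1039.8 to 1531 CPM (2.44 ± 0.10, adjusted p = 9.1e-12, edgeR). *Bmp1*, which trims the C-terminal end of procollagens, stood at 227 to 341 against 82.7 to 117 CPM (1.71 ± 0.10, adjusted p = 2.5e-10, edgeR), on the same side as the N-propeptidases. Of 9 tested matrix substrates 5 were higher in GFP+ and 3 in tdTomato+ stroma, among them *Fbln2*, at 703 to 1515 against 11.4 to 85.1 CPM (4.68 ± 0.42, adjusted p = 1.6e-06, edgeR).

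In luminal cells the ADAM proteases were lower in GFP+ cells for 5 of 6 tested, against 19.0% of all genes, among them *Adam10*, a sheddase of cell surface proteins (log2 fold change -2.03 ± 0.24, adjusted p = 2.9e-05, edgeR). *Bmp1* was lower in GFP+ luminal cells (19.1 to 32.2 against 48.3 to 99.7 CPM, -1.62 ± 0.17, adjusted p = 5.7e-06, edgeR) and *Reck* higher (11.0 to 28.4 against 2.28 to 7.79 CPM, 2.26 ± 0.24, adjusted p = 6.7e-06, edgeR). The versican gene *Vcan*, which encodes a main substrate of the proteoglycan-cleaving ADAMTS, stood at 1.71 to 13.5 CPM in GFP+ and 0.548 to 3.80 CPM in tdTomato+ luminal cells, a log2 fold change of 1.40 ± 0.30 (adjusted p = 0.0016, edgeR). With E+P edgeR called 0 of 37 tested genes of these lists in either stromal subset, DESeq2 called 4 in each and limma-voom 4 in GFP+ and 0 in tdTomato+ stroma, and 11 and 14 genes had an unadjusted p under 0.05 in edgeR. In tdTomato+ luminal cells E+P called 3 of 7 activators, inhibitors and uptake genes higher and 1 lower, against 7.63% and 6.44% of all genes, among them *Bsg*, an inducer of MMPs in neighbouring cells (1.56 ± 0.18, adjusted p = 5.9e-05, edgeR), and *Lrp1*, which fell by 2.10 ± 0.35 (adjusted p = 0.0011, edgeR). *Pcsk6*, a proprotein convertase, rose in GFP+ (3.90 ± 0.46, adjusted p = 3.8e-04, edgeR) and in tdTomato+ luminal cells (1.96 ± 0.42, adjusted p = 0.0044, edgeR).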

How the data were processed

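Read counts per gene, deposited by the authors without normalization, were used for 28 libraries whose groups came from the sample titles. The labels and methods name STAR 2.5.2a and GRCm38.p5 with a GENCODE annotation. Its release and the strand setting are not given in the sources used here. GENCODE M21 gave symbols and coordinates. Members, gene lists and tests were chosen with earlier results of these data known.

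Counts were scaled by TMM, genes were kept by filterByExpr, and groups (lineage, subset and treatment) were compared by edgeR 4.0.16 (R 4.3.3; quasi-likelihood fit, two-sided). Fits held 14 stromal, 14 luminal or all 28 libraries. The Benjamini-Hochberg adjustment covered all tested genes, and calls were made under 0.01. SE is the absolute log2 fold change divided by the square root of F. Log2 CPM had a prior count of 2. The script was tested on simulated stromal data with 200 changed genes. Between the subsets 48.5% of 2-fold and 70.1% of 4-fold changes were called. With E+P in GFP+ stroma these shares were 19.6% and 46.8%, so changes of this size can be missed there. Of the unchanged genes 2 and 0 were called.

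GFP+ and tdTomato+ cells with the same number and treatment came from the same mouse. Their deviations from the group means correlated at 0.0693 and 0.0232 in stroma and 0.164 and 0.147 in luminal cells. Replicates are mice. A number does not link treated to untreated mice.

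Alternatives were DESeq2 size factors, library size only, DESeq2 1.42.0, limma-voom 3.58.1, an adjusted p under 0.05, all genes kept regardless of counts, a block for the mouse (for E+P, the replicate number), only the groups compared, leaving out each mouse, and, added after seeing the data, leaving out the tdTomato+ stroma of untreated mice 1 and 3. Named members had at least 10 CPM in a group mean and a call between subsets or with E+P, up to 24 in order of level (28 met both), and the others are given by range. For a list, up to 3 called genes were named in a comparison.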

Additional observations from a re-analysis of the deposited data

Results flagged for a closer look

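Among 56 groups of 4 untreated libraries of the named members, 4 held 1 library far from the other 3, where chance flags about 1 in 20. These were *Mmp11* in the GFP+ stroma of untreated mouse 4 (132 CPM), *Timp1* in the GFP+ stroma of untreated mouse 3 (37.8 CPM), *Timp2* in the GFP+ luminal cells of untreated mouse 2 (133 CPM) and *Adamts15* in the GFP+ luminal cells of untreated mouse 1 (74.2 CPM, below the other 3).

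The subset difference itself differed between stroma and luminal cells for 14 named members, by the interaction test of edgeR. On the log2 scale the interaction was positive, with GFP+ cells relatively higher in stroma, for *Mmp19* (6.12), *Mmp16* (5.39), *Mmp14* (4.03), *Timp1* (3.51), *Mmp23* (2.56), *Adamts2* (2.30) and *Timp2* (1.42). It was negative for *Adamts8* (-5.91), *Adamts4* (-3.87), *Adamts1* (-3.49), *Adamts9* (-3.45), *Timp3* (-3.33), *Adamts14* (-2.20) and *Adamts10* (-1.34). *Mmp16*, *Mmp23* and *Adamts14* stayed at 1.01 CPM or less in every luminal library and were not tested there alone. Their interactions rest on few luminal counts. The response to E+P differed between the luminal subsets for *Timp2* (1.65) and *Mmp14* (-1.31).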

How the results depend on the processing

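The numbers of called members between stroma and luminal cells (35), between the subsets in stroma (33) and in luminal cells (14) and for lineage by subset (17) stayed within 1.5 times under every alternative that was run, and none of 113 results of named members changed direction in 1563 refits. Of these refits 1479 kept their side of the threshold, 47 lost a call and 37 gained one. The 1479 include 30 E+P refits with the replicate number as block, which links no mice and so cannot check a pairing. The E+P counts moved more. In GFP+ stroma (1 called) there were 5 with DESeq2, 4 with limma-voom, 9 without the low-count filter, 6 with only the groups compared and 3 at an adjusted p under 0.05, and 0 to 2 with a mouse left out. In tdTomato+ stroma (0 called) there were 1 with DESeq2 and 7 without the filter, and for subset by E+P in stroma (0 called) 1 with DESeq2, 9 without the filter and 1 at an adjusted p under 0.05. In GFP+ luminal cells (3 called) there were 5 at an adjusted p under 0.05 and 0 to 2 with a mouse left out. In tdTomato+ luminal cells (4 called) there were 10 with DESeq2, 10 at an adjusted p under 0.05 and 4 to 7 with a mouse left out (7 without untreated mouse 2). For subset by E+P in luminal cells (2 called) there were 1 with library size only, 4 with DESeq2 and 0 to 2 with a mouse left out. The cause of these changes was not tested, and leaving out a mouse also leaves fewer samples. With the mouse as replicate block the counts were 35 between stroma and luminal cells, 34 and 15 between the subsets in stroma and luminal cells, 17 for lineage by subset and 3 for subset by E+P in luminal cells, and the block ended the call of *Adamts14* for lineage by subset (adjusted p = 0.014, edgeR) and added *Mmp11* there (0.0076). Scaling by library size only moved the median of all genes between stroma and luminal cells from 0.02 to -0.27 (log2).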
